A study of Drosophila melanogaster with 4 samples.

Results

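The proteasome genes of Drosophila melanogaster were followed in the wing imaginal disc, the larval epithelium that forms the adult wing, after depletion of subunits of the Mediator kinase module. Members were all genes whose symbol begins with Prosalpha or Prosbeta, or with Rpn or Rpt followed by a digit. The authors' deposited tables listed 34 such genes out of 7451 genes in all. Of these, 32 encode the standard subunits, with 14 in the core particle and 18 in the regulatory particle, and 2 are paralogs, Rpt3R and Rpt6R. The reference annotation holds 48 symbols that meet the rule, and the 14 found in no table were all paralog symbols.

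The proteasome degrades proteins tagged with ubiquitin. Its core particle is a barrel of stacked alpha and beta rings, in which the alpha rings gate the entrance and certain beta subunits cut the substrate. The regulatory particle caps the barrel: its Rpt subunits form a ring of ATPases that unfolds substrates and threads them inwards, and its Rpn subunits bind ubiquitin chains, remove them and hold the cap together.

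Larvae of the L3 stage of 4 genotypes each gave 1 single-cell RNA library, made by the 10x Genomics droplet method from 100 to 120 pooled discs. The Control genotype was ap-Gal4>GFP/+, in which the driver ap-Gal4, active in the dorsal compartment, switches on green fluorescent protein (GFP). The other genotypes carried the same driver and GFP together with RNA interference constructs, which were UAS-Cdk8i-cycCi/+ in the Cdk8-CycC depletion, UAS-Med12i/+ in the Med12 depletion and UAS-Cdk8i-cycCi-Med12i/+ in the Cdk8-CycC-Med12 depletion, called the combined depletion from here on. For each library the authors' deposited table compares GFP-positive with GFP-negative cells among cells that express nub, a gene of the wing pouch, so that each depletion was measured against cells of the same discs in which GFP was not detected. A dorsal cell whose GFP message was missed counts as GFP-negative. The tables hold only genes whose p-value in the authors' test over cells was below 0.01, so a member that differed little between the sets may be unlisted.

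The authors' deposited tables held 5524 genes for Control, 6799 for Cdk8-CycC, 5568 for Med12 and 6377 for the combined depletion. The GFP message was found in 100% of the first set and in 0% of the second, nub in 100% of both, and ap, the dorsal gene behind the driver, in 62.6 to 68.1% of GFP-positive against 5.3 to 7.2% of GFP-negative cells. The targeted genes were detected in fewer GFP-positive than GFP-negative cells in each library that carried the matching construct and in more elsewhere. In the authors' deposited tables CycC was found in 43.2% of the GFP-positive Control cells and 32.4% of the GFP-negative ones, against 18.9% and 32.2% in the Cdk8-CycC depletion. For kto, the gene for Med12, the shares were 38.6% and 28.6% in Control and 32.0% and 38.9% in the Med12 depletion. Of the markers of other cell types, only Mef2 of the 5 myoblast genes, Ppn of the 5 hemocyte genes and trh of the 2 tracheal genes were listed in any table, and twi, Him, zfh1, htl, Hml, srp, NimC1, Sr-CI and btl were listed in none. Ubx, taken as a marker of the peripodial layer, was higher in GFP-positive cells of all 4 libraries. Its log2 folds were 3.86 to 4.62 in the authors' deposited tables, lowest in the Cdk8-CycC depletion. In Control, Cdk8-CycC and Med12, Ubx was among the genes detected in 70 to 98% of GFP-positive cells, a larger share than that of ap. Whether its message came from peripodial cells was not tested. Antp, the other peripodial gene examined, had 0.040, 0.033, 0.23 and 0.21 in Control, Cdk8-CycC, Med12 and the combined depletion in the authors' deposited tables. Their part in the results below was not tested. How many cells and molecules stand behind each share was not given in the sources used here. With depth unknown, no interval was computed.

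Proteasome messages were found in most cells of every library, and at the median core particle genes were found in more cells than regulatory particle genes. In the authors' deposited tables the median detection share of the 14 core genes in GFP-positive cells was 87.6% in Control, 94.7% in Cdk8-CycC, 96.2% in Med12 and 93.8% in the combined depletion. For the listed regulatory genes the medians were 81.5%, 88.5%, 93.1% and 90.6% in the same order, which is kept throughout. In GFP-negative cells the core medians were 79.3%, 87.6%, 92.0% and 86.7%, and the regulatory medians 70.4%, 76.7%, 87.0% and 80.7%. The core median stood above the regulatory median in both sets of all 4 libraries, while single genes of the particles overlapped. The median over all listed genes was far lower, at 34.1%, 41.7%, 51.2% and 51.8% of GFP-positive cells. A share of cells depends on the capture of each message as well as its level, so the shares rank detection and not expression per length.

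**Figure D1:**
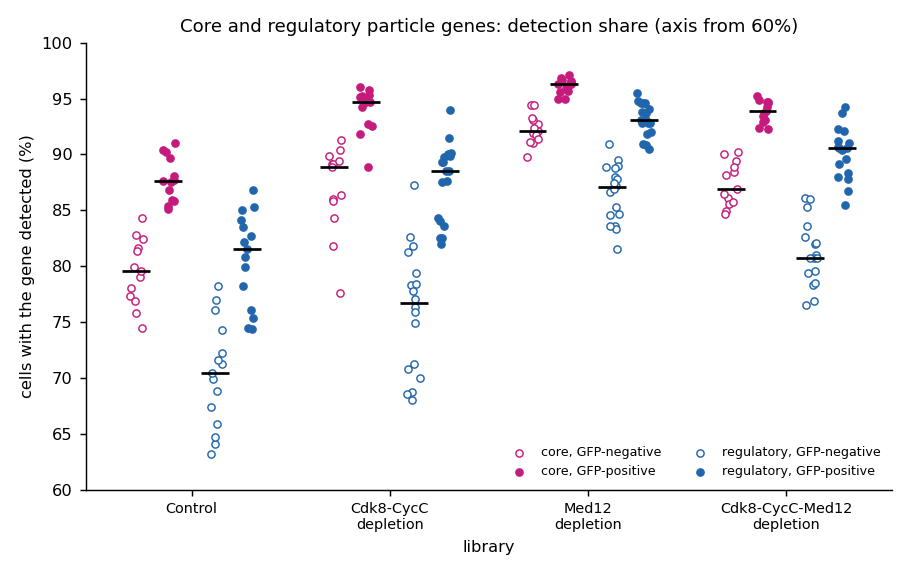
Percentage of GFP-positive and GFP-negative cells in which each standard core and regulatory gene was detected, per library, with the vertical axis starting at 60% and black bars at the medians. Prosalpha1 and the paralogs lie below the axis and are left out, and in all 4 libraries the median of the core genes stands above that of the regulatory genes, whose points overlap, and each gene has a higher share in GFP-positive cells.

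Within the core, alpha and beta genes were detected at similar shares. In the Control table of the authors' deposited tables the median GFP-positive share was 87.6% for the 7 alpha genes and 87.5% for the 7 beta genes. Prosbeta5, the subunit with chymotrypsin-like activity, had the highest GFP-negative share of all members in Control, at 84.3%, while Prosalpha4, a subunit of the alpha ring, had the highest in Cdk8-CycC at 91.3%. In the regulatory particle the lowest Control share in GFP-negative cells among standard genes belonged to Rpt5, an ATPase, at 63.2%. The order of genes by detection was similar between libraries, less so in GFP-positive cells. Over 27 standard genes listed in all tables, without Prosalpha1, Pearson's r of the GFP-negative shares between libraries ran from 0.84 to 0.95, and that of the GFP-positive shares from 0.67, between Med12 and the combined depletion, to 0.92, a description of genes that share their libraries and capture.

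Prosalpha1 and the paralogs stood apart from this level. Prosalpha1, a subunit of the alpha ring, was detected in 4.9%, 6.5%, 13.9% and 11.5% of GFP-positive cells in the authors' deposited tables, and in 3.1%, 3.5%, 10.1% and 7.9% of GFP-negative cells. A neighbouring gene symbol, Prosalpha1R, was listed in no table, and in the RefSeq annotation 1 gene starts between the pair. Whether reads of Prosalpha1 were shared with this near copy was not tested. Rpt3R, a paralog of the ATPase Rpt3, was detected in 10.2%, 20.6%, 20.7% and 18.1% of GFP-positive cells and in 4.6%, 7.3%, 11.7% and 7.9% of GFP-negative cells in the authors' deposited tables. Rpt6R, a paralog of the ATPase Rpt6, was listed for the Cdk8-CycC depletion alone, where the authors' deposited table gives 1.6% for GFP-positive cells and 0.2% for GFP-negative cells. Each of the 3 genes was far below the standard members in every table that lists it.

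**Figure D2:**
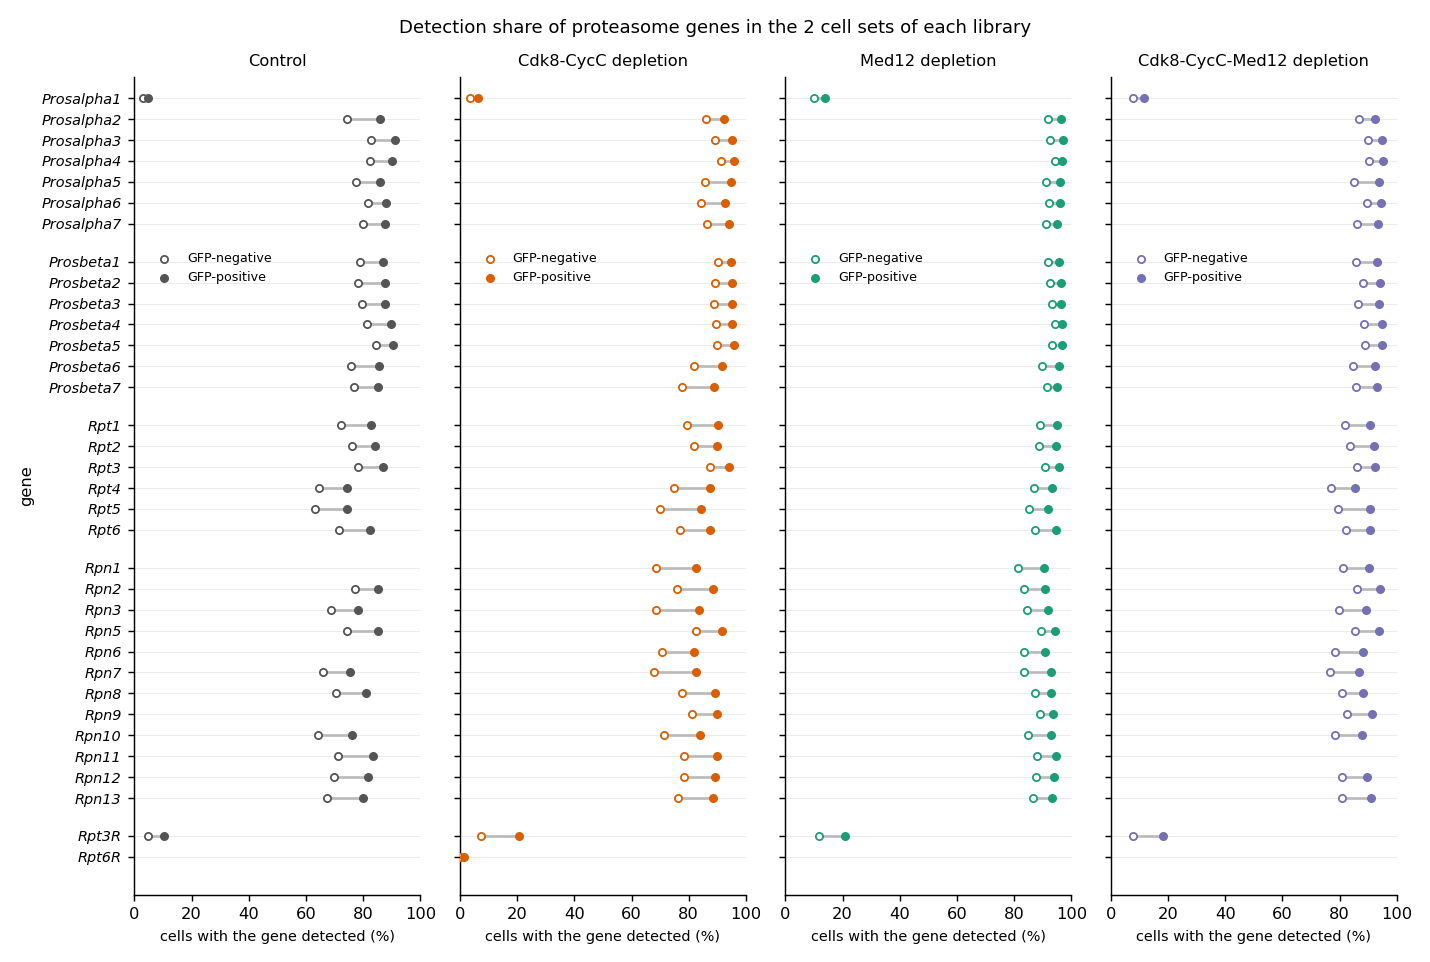
Detection share of each proteasome gene, in percent of cells, in GFP-positive and GFP-negative cells of the 4 libraries. Most standard genes lie above 60% in both sets, and Prosalpha1, Rpt3R and Rpt6R lie far below, at 0.2 to 20.7%.

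Within each library nearly all proteasome genes were slightly higher in GFP-positive than in GFP-negative cells. The fold is the authors' deposited ratio of mean expression, read as a natural log and converted to log2. Positive values mark genes with more message in the GFP-positive set. It exceeded 0 for 29 of 30 listed members in Control, 34 of 34 in Cdk8-CycC, 31 of 33 in Med12 and 31 of 32 in the combined depletion. Over all listed genes 55.8%, 77.6%, 73.9% and 76.1% lay above 0, and over genes detected in 70 to 98% of GFP-positive cells, the range of most members, 86%, 87.5%, 87.7% and 84.7% did. The members' shares thus lay above both backgrounds. The median log2 fold of the members was 0.058 in Control, 0.13 in Cdk8-CycC, 0.093 in Med12 and 0.092 in the combined depletion. The corresponding medians over genes detected in 70 to 98% of cells were 0.055, 0.075, 0.058 and 0.053. In Control the members sat at the level of these similarly detected genes and in the depletions above it. The match is loose. The members' median GFP-positive share was 85.05% in Control, 89.85% in Cdk8-CycC and 94.6% in Med12, against 80.8%, 82.8% and 84.3% for those genes. What part this gap in detection has in the members' higher folds was not tested. The median log2 fold of the core genes was 0.083, 0.14, 0.095 and 0.091, and that of the listed regulatory genes 0.053, 0.12, 0.080 and 0.092. No member reached the 1.3-fold needed for a call in any library, where 0.396%, 0.578%, 1.23% and 0.91% of all genes did. Over 27 standard genes listed in all tables, without Prosalpha1, Pearson's r of the log2 folds between libraries ran from -0.14 to 0.30. The order of genes by fold was thus little shared between libraries, unlike their order by detection.

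By detection share every listed member was found in a larger part of the GFP-positive set in every table that lists it, as were 99.3%, 99.3%, 98.5% and 99.4% of all listed genes. The ratio of the shares reached 1.3-fold for Rpt3R in all 4 libraries and for Prosalpha1 in the Med12 and combined depletions, among genes detected in at least 10% of cells of either set. Over all genes that met the same detection minimum the ratio reached 1.3-fold for 71.2%, 74%, 54.9% and 61.7%. The nearer a GFP-negative share is to 100%, the smaller this ratio can be.

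**Figure D3:**
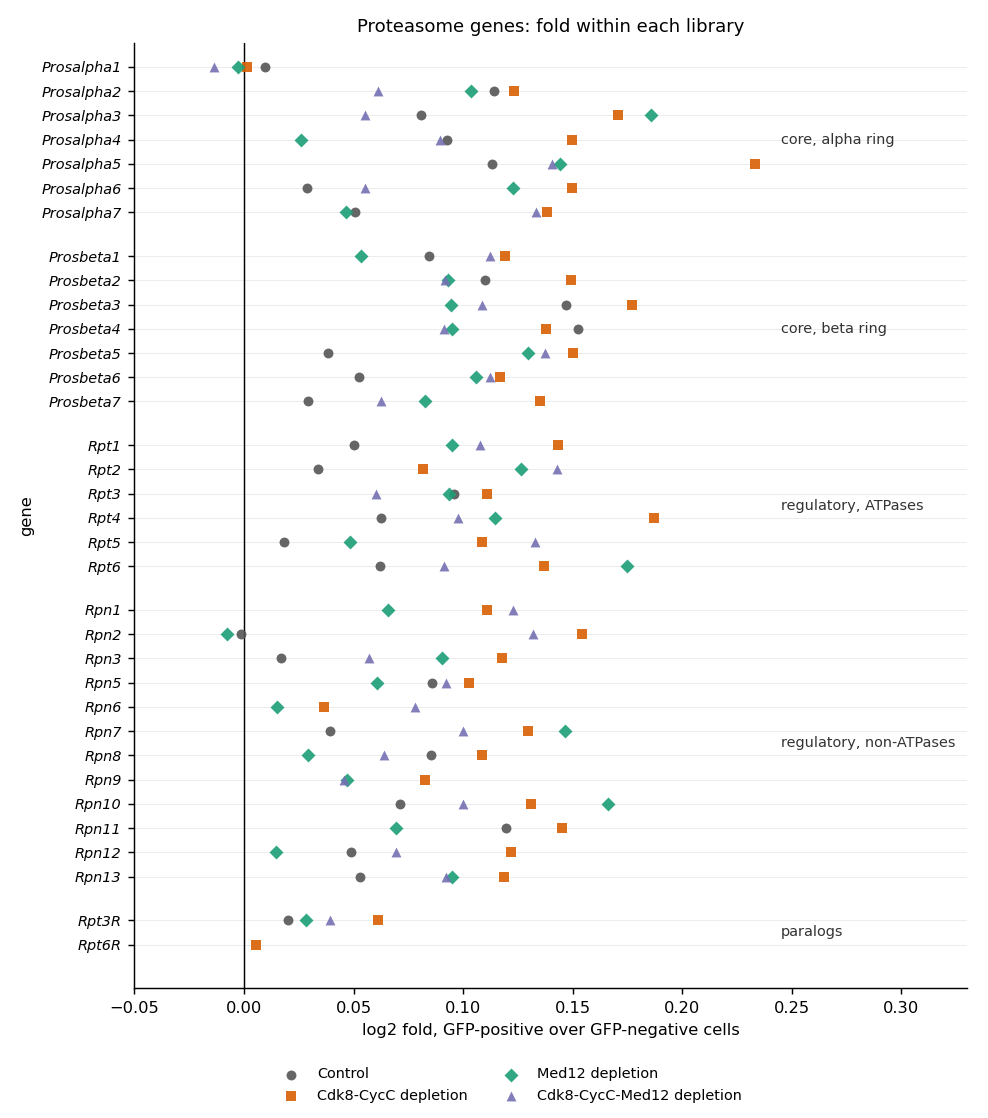
Log2 fold of GFP-positive over GFP-negative cells for each proteasome gene, grouped by particle, with 1 point per library. The points of the Cdk8-CycC depletion are the highest of the 4 for 21 of the 29 genes listed in all tables, and all points lie below 0.24.

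The alpha ring held the member with the highest fold of all, Prosalpha5, a subunit of that ring. Its log2 fold in the authors' deposited tables was 0.11 in Control, 0.23 in Cdk8-CycC, 0.14 in Med12 and 0.14 in the combined depletion. The Cdk8-CycC value, a fold of 1.18, stood above the others, which lay close together. Prosalpha3 had log2 folds of 0.081, 0.17, 0.19 and 0.055 in the authors' deposited tables, high in both single depletions and low in Control and in the combined depletion. Prosalpha6, with 0.029, 0.15, 0.12 and 0.055 in the authors' deposited tables, was also higher in both single depletions than in the other libraries. Prosalpha4 and Prosalpha7 were instead lowest in the Med12 depletion. In the authors' deposited tables Prosalpha4 had 0.092, 0.15, 0.026 and 0.089, and Prosalpha7 had 0.051, 0.14, 0.047 and 0.13. Prosalpha2 differed least among the well detected alpha genes, with 0.11, 0.12, 0.10 and 0.061 in the authors' deposited tables. Prosalpha1 lay near 0 throughout, at 0.0095, 0.0012, -0.0026 and -0.014 in the authors' deposited tables. It was found in few cells, and the fold of such genes is taken to be understated. By the log2 ratio of detection shares it had 0.66, 0.89, 0.46 and 0.54.

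In the beta ring the genes of the cutting subunits did not share one pattern. Prosbeta1, of the caspase-like site, had log2 folds of 0.084, 0.12, 0.053 and 0.11 in the authors' deposited tables. Prosbeta2, of the trypsin-like site, had 0.11, 0.15, 0.093 and 0.092 in the authors' deposited tables. Prosbeta5, of the chymotrypsin-like site, had 0.038, 0.15, 0.13 and 0.14 in the authors' deposited tables. Prosbeta5 was thus low in Control alone, whereas Prosbeta1 and Prosbeta2 varied less. The structural subunits Prosbeta3 and Prosbeta4 had the highest Control folds of all members. Prosbeta3 had 0.15, 0.18, 0.094 and 0.11 in the authors' deposited tables, and Prosbeta4 0.15, 0.14, 0.095 and 0.091. Of the beta genes, Prosbeta4 was the one with its highest fold in Control. Prosbeta6 and Prosbeta7, also without a cutting site, were lowest in Control, with 0.053, 0.12, 0.11 and 0.11 for Prosbeta6 and 0.029, 0.13, 0.083 and 0.062 for Prosbeta7 in the authors' deposited tables.

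Among the ATPases the library with the highest fold differed from gene to gene. Rpt4 had log2 folds of 0.062, 0.19, 0.11 and 0.098 in the authors' deposited tables, and Rpt1 had 0.050, 0.14, 0.095 and 0.11, both highest in Cdk8-CycC. Rpt6 had 0.062, 0.14, 0.17 and 0.091, highest in Med12, in the authors' deposited tables. Rpt2, with 0.034, 0.082, 0.13 and 0.14, and Rpt5, with 0.018, 0.11, 0.048 and 0.13, were highest in the combined depletion in the authors' deposited tables. Rpt3 varied less, with 0.096, 0.11, 0.093 and 0.060 in the authors' deposited tables. Its paralog Rpt3R had 0.020, 0.061, 0.028 and 0.039 in the authors' deposited tables, also highest in Cdk8-CycC.

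Of the non-ATPase subunits, Rpn2 differed most between libraries. Rpn2, a large scaffold of the base that holds the ubiquitin receptor Rpn13, had log2 folds of -0.0015, 0.15, -0.0079 and 0.13 in the authors' deposited tables. It was near 0 in Control and in the Med12 depletion and higher in GFP-positive cells of both libraries that carried the Cdk8-CycC construct. Its detection shares in GFP-positive and GFP-negative cells in the authors' deposited tables were 85.0% and 77.0% in Control, 88.5% and 75.9% in Cdk8-CycC, 90.9% and 83.6% in Med12 and 94.2% and 86.1% in the combined depletion. As a log2 ratio of shares, that is 0.14, 0.22, 0.12 and 0.13, so the combined depletion stood with Control and Med12 by this measure and apart from them by the fold. The range of Rpn2 over the 4 libraries, 0.16, was the widest of the 29 genes, followed by 0.13 for Prosalpha3 and 0.12 for Rpt4. The range was narrowest for Prosalpha1, found in few cells, at 0.023, and among well detected genes for Rpn5, a lid subunit, at 0.042.

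The ubiquitin receptors Rpn10 and Rpn13 were higher in GFP-positive cells of all 4 libraries. Rpn10 had log2 folds of 0.071, 0.13, 0.17 and 0.100 in the authors' deposited tables, and Rpn13 had 0.053, 0.12, 0.095 and 0.092. Rpn11, the subunit that cuts ubiquitin chains off the substrate, was not listed for the combined depletion and had 0.12, 0.14 and 0.069 in the other 3 of the authors' deposited tables. Rpn8, the partner of Rpn11, had 0.085, 0.11, 0.029 and 0.064 in the authors' deposited tables. Rpn8 was lowest in the Med12 depletion, as was Rpn11 among the 3 libraries that list it. The lid subunits Rpn3 and Rpn7 were lowest in Control, with 0.017, 0.12, 0.090 and 0.057 for Rpn3 and 0.039, 0.13, 0.15 and 0.100 for Rpn7 in the authors' deposited tables. Rpn5 and Rpn12, also of the lid, were lowest in the Med12 depletion, with 0.086, 0.10, 0.061 and 0.092 for Rpn5 and 0.049, 0.12, 0.015 and 0.069 for Rpn12 in the authors' deposited tables.

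A further 3 genes were listed for the depletions but not for Control. Rpn1, a scaffold that docks proteins carrying ubiquitinated cargo, had log2 folds of 0.11 in Cdk8-CycC, 0.066 in Med12 and 0.12 in the combined depletion in the authors' deposited tables. Rpn6, a lid subunit, had 0.036, 0.015 and 0.078, and Rpn9, also of the lid, had 0.083, 0.047 and 0.046 in the authors' deposited tables. These genes enter no difference from Control. Their GFP-negative shares in the authors' deposited tables ran from 68.7% for Rpn1 in Cdk8-CycC to 88.9% for Rpn9 in Med12.

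Against Control, the Cdk8-CycC depletion had the most proteasome genes with a higher fold. The difference is the log2 fold of the depletion library minus that of Control, over genes listed in both tables. It lay above 0 for 28 of 30 members, where 74.6% of all 5308 genes and 75.3% of those detected in 70 to 98% of GFP-positive Control cells did. The median of the members was 0.065, against 0.024 over all genes and 0.044 over the similarly detected genes. All 15 regulatory genes and 12 of 14 core genes lay above 0, with medians of 0.073 and 0.061. The highest were Rpn2 at 0.16, Rpt4 at 0.12 and Prosalpha6 at 0.12, and the lowest were Prosbeta4 at -0.014, Prosalpha1 at -0.0082 and Prosalpha2 at 0.0095. Rpn2 stood at the 97.8 percentile of all genes, and the central 95% of all genes ran from -0.066 to 0.15. No member reached a 1.3-fold difference, as 0.118% of all genes did.

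In the Med12 depletion the members were spread on both sides of the background. The difference from Control lay above 0 for 16 of 30 members, against 69.2% of all genes and 66.3% of the similarly detected genes, and its median was 0.019 for the members and 0.019 for all genes. Core genes lay above 0 in 6 of 14 cases with a median of -0.0072, and regulatory genes in 9 of 15 cases with a median of 0.042. The core median minus the regulatory median was -0.049, which became -0.0191 over means and turned to 0.0199 by the ratio of detection shares. Of the regulatory genes, 5 of 6 ATPases and 4 of 9 listed non-ATPase genes lay above 0. The highest members were Rpt6 at 0.11, Rpn7 at 0.11 and Prosalpha3 at 0.10, and the lowest Prosalpha4 at -0.067, Prosbeta4 at -0.057 and Rpn8 at -0.056. No member reached 1.3-fold, where 0.38% of all genes did. Within the Med12 library itself the core median fold, 0.095, stood above the regulatory one, 0.080. In Control these medians were 0.083 and 0.053.

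In the combined depletion 20 of 29 members lay above Control, against 71% of all genes and 68.8% of the similarly detected genes. The median was 0.028 for the members, 0.020 for all genes and 0.028 for the similarly detected genes. Core genes lay above 0 in 7 of 14 cases with a median of 0.012, and regulatory genes in 12 of 14 cases with a median of 0.037. The highest were Rpn2 at 0.13, Rpt5 at 0.11 and Rpt2 at 0.11, and the lowest Prosbeta4 at -0.061, Prosalpha2 at -0.053 and Prosbeta3 at -0.039. No member reached 1.3-fold, where 0.414% of all genes did. All 3 differences use the same Control library, and Prosbeta4, whose Control fold was the highest of the members, was among the lowest members in each.

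**Figure D4:**
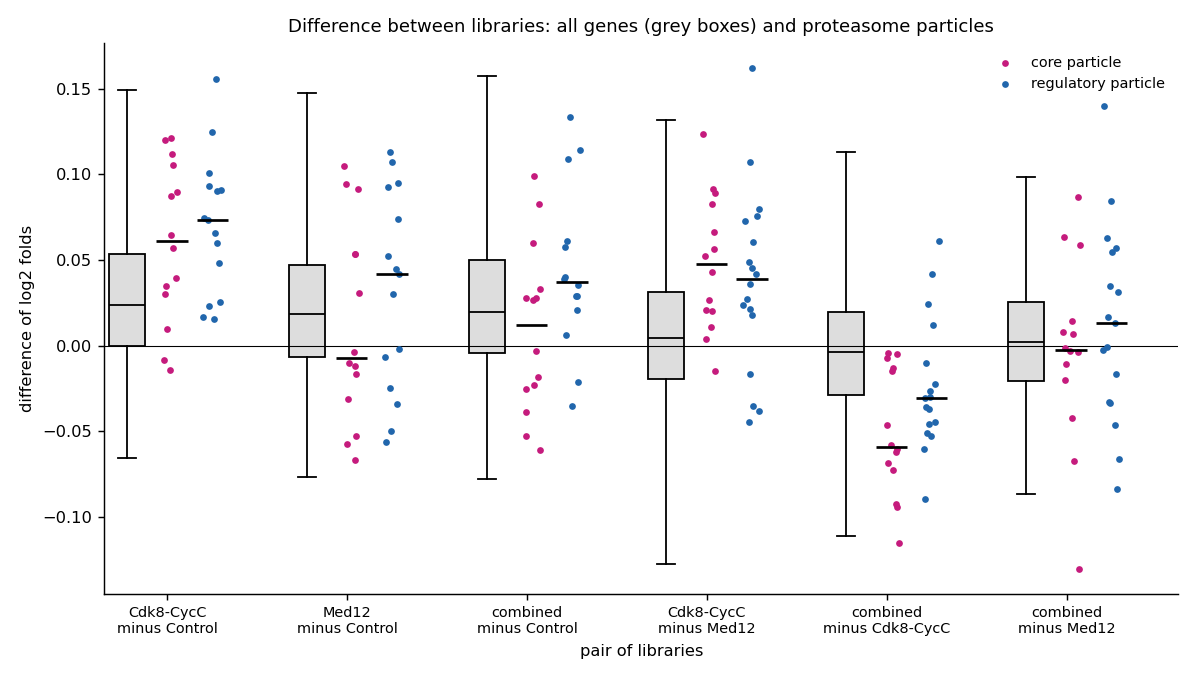
Difference in log2 fold between pairs of libraries, with grey boxes for all genes (quartiles, with whiskers around the central 95% of genes) and points for core and regulatory genes, with black bars at their medians. In the Cdk8-CycC depletion both particles lie above Control and above the Med12 depletion at the median, and all 14 core genes lie below 0 in the combined depletion minus Cdk8-CycC.

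The depletions were also set against each other, which leaves Control out. The fold was higher in Cdk8-CycC than in Med12 for 28 of 33 members, against 55.2% of all genes and 55.6% of the similarly detected genes, with a median of 0.042 against 0.0047 over all genes. Core genes lay above 0 in 13 of 14 cases and regulatory genes in 14 of 18, and Rpn2 was the highest at 0.16, followed by Prosalpha4 at 0.12 and Rpn12 at 0.11. The combined depletion lay above Cdk8-CycC for 4 of 32 members, against 45.6% of all genes and 36.8% of the similarly detected genes. Its median was -0.036, against -0.0037 over all genes. None of the 14 core genes and 4 of 17 regulatory genes lay above 0, and the 4 were Rpt2 at 0.061, Rpn6 at 0.042, Rpt5 at 0.024 and Rpn1 at 0.012. Prosalpha3 was the lowest, at -0.12. In the combined depletion minus Med12, 16 of 32 members lay above 0, against 52.7% of all genes and 48% of the similarly detected genes, with a median of 0.0027. Rpn2 was the highest there, at 0.14 and the 99.3 percentile of all genes, and Prosalpha3 the lowest, at -0.13 and the 0.694 percentile. In these 3 pairs no member reached a 1.3-fold difference of folds, where 0.417%, 0.391% and 0.0602% of all genes did.

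Over the 29 members listed in all 4 tables, 21 had their highest fold in the Cdk8-CycC depletion, 4 in Med12, 2 in the combined depletion and 2 in Control. Over all 4300 genes listed in all tables, 36.2% were highest in Cdk8-CycC, 27.8% in Med12, 26.8% in the combined depletion and 9.19% in Control. Over those detected in 70 to 98% of cells the shares were 41.8%, 32.6%, 16.3% and 9.2% in that order. The 4 highest in Med12 were Prosalpha3, Rpn7, Rpn10 and Rpt6, the 2 in the combined depletion Rpt2 and Rpt5, and the 2 in Control Prosalpha1 and Prosbeta4. None was lowest in Cdk8-CycC, where 13% of all genes and 10.4% of the similarly detected genes were. The fold was lowest in Control for 15 members, against 51.9% of all genes and 52.8% of the similarly detected genes.

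The detection shares gave another picture. The log2 ratio of GFP-positive to GFP-negative shares was above Control in Cdk8-CycC for 10 of 30 members, against 74.6% of all genes, with a median difference of -0.0091. It was above Control for 0 of 30 in Med12, against 24.5% of all genes, and for 1 of 29 in the combined depletion, against 40.3%. Among genes detected in 70 to 98% of cells the medians were -0.013, -0.088 and -0.048, and those of the members were -0.0091, -0.093 and -0.048. The members thus lay at the level of similarly detected genes by this measure. The shares were then transformed to a log scale of mean count, as minus the natural log of 1 minus the share. With their ratio centred on all genes, 3 of the 29 members were highest in Cdk8-CycC. By the fold 21 were, and 18 by the fold centred in the same way. By the transformed shares 23.3% of all genes and 4.75% of those detected in 70 to 98% of cells were highest there. By mean expression the members thus stood above genes detected in 70 to 98% of cells in Cdk8-CycC. The members' median GFP-positive share was also higher than that of these genes. By the share of cells with a message, 3 of 29 against 4.75% differ by few genes. The 29 include Prosalpha1 and Rpt3R, which lie outside the range of 70 to 98%. Before centring, the log2 ratio of transformed shares was 0.67, 0.92, 0.49 and 0.57 for Prosalpha1. For Rpt3R it was 1.2, 1.6, 0.90 and 1.3. Both were highest in Cdk8-CycC, so the 3 may include them. Between depletions, the ratio of shares was higher in Cdk8-CycC than in Med12 for 33 of 33 members, against 89.2% of all genes. It was higher in the combined depletion than in Cdk8-CycC for 7 of 32, against 20.1%, and higher than in Med12 for 32 of 32, against 75.6%. All genes are a loose background here. The median GFP-negative share in Med12 was 88.9% for the members and 37.9% for all genes, and a share near 100% limits this ratio. A 1.3-fold difference in this ratio was reached by 0 members against Control in Cdk8-CycC, Med12 and the combined depletion, where 5.38%, 2.97% and 3.02% of all genes reached it. Between Cdk8-CycC and Med12 it was reached by 2 members, Prosalpha1 and Rpt3R, and by 9.61% of all genes. No member reached it in the combined depletion against Cdk8-CycC or Med12, where 5.22% and 2.97% of all genes did.

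GFP-negative cells of the depletion libraries also had more cells with proteasome messages than those of Control, as did genes in general. The log2 ratio of the share to that of Control was above 0 for 28 of 30 members in Cdk8-CycC, 30 of 30 in Med12 and 29 of 29 in the combined depletion. Over all genes 79%, 98% and 97.8% lay above 0, and over genes detected in 70 to 98% of Control GFP-positive cells 90.7%, 97.9% and 99.3%. The members' median was 0.15, 0.26 and 0.18, against 0.15, 0.67 and 0.60 over all genes and 0.13, 0.28 and 0.21 over the similarly detected genes. The members thus lay near the similarly detected genes. Depth per cell, which moves every gene, is unknown, and its part in the differences between libraries was not tested.

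The genes that feed or assist the proteasome were read from lists of related genes. Of the 8 shuttle factors and deubiquitinases that act at or beside the proteasome, 6 were listed both for Control and for each depletion. The difference from Control lay above 0 for 6 of 6 in Cdk8-CycC, 5 of 6 in Med12 and 5 of 6 in the combined depletion. The medians were 0.080, 0.038 and 0.036. Uch-L5, a deubiquitinase that binds Rpn13, had log2 folds of 0.037, 0.20, 0.028 and 0.065 in the authors' deposited tables. It was high in the Cdk8-CycC depletion alone, with a difference from Control of 0.17, above that of every member. Usp14, a deubiquitinase that binds Rpn1, lay 0.14, 0.050 and 0.10 above Control in the 3 depletions. None of these genes reached 1.3-fold.

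The other parts of the pathway are read against the 74.6%, 69.2% and 71% of all genes that lay above Control in Cdk8-CycC, Med12 and the combined depletion, where the all-gene medians were 0.024, 0.019 and 0.020. Of the 5 listed genes around the p97 segregase, which extracts ubiquitinated proteins, 4, 5 and 4 lay above Control in Cdk8-CycC, Med12 and the combined depletion. Their medians were 0.041, 0.051 and 0.022. The highest of them was p47, a cofactor of that segregase, at 0.13 in Med12. Of the E1 and E2 enzymes, which activate and carry ubiquitin and its relatives, 7 of 10, 3 of 7 and 4 of 9 listed genes lay above Control, from eff at -0.056 to Ubc4 at 0.11 in Cdk8-CycC. Of the cullins and other subunits of ubiquitin ligases, 8 of 9, 4 of 8 and 6 of 8 did. Of the COP9 signalosome, a complex related to the proteasome lid that acts on cullins, 6 of 8, 7 of 7 and 3 of 6 did, with medians of 0.019, 0.036 and -0.0023. Pomp, an assembly factor of the core particle, and PI31, a proteasome regulator, lay at -0.028 and -0.032 in Cdk8-CycC, and ntc, the other listed gene of that list, at 0.025. In Med12 the listed ones, PI31 and ntc, lay at 0.0099 and 0.011, and in the combined depletion ntc lay at 0.016. Keap1, which restrains the transcription factor encoded by cnc, lay at -0.0097 in Cdk8-CycC, 0.00019 in Med12 and -0.012 in the combined depletion. The gene cnc was not listed for Control. No gene of these lists reached 1.3-fold, and the ubiquitin genes themselves were listed in no pair with Control.

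Heat shock genes respond to dissociation of tissue as well as to protein damage. Of the listed ones, 1 of 6, 3 of 7 and 3 of 4 lay above Control in the Cdk8-CycC, Med12 and combined depletions, with medians of -0.25, -0.017 and 0.14. Over all genes 74.6%, 69.2% and 71% lay above Control, and 0.118%, 0.38% and 0.414% differed by at least 1.3-fold. In Cdk8-CycC, Hsp68 and Hsp26 were lower by more than 1.3-fold, at -0.65 and -0.43, and Hsc70-3, a chaperone of the endoplasmic reticulum, was at 0.23. Hsp23, a small heat shock protein, was higher by more than 1.3-fold in Med12, at 0.38, and in the combined depletion, at 0.51. Whether these shifts bear on the proteasome values of the same libraries was not tested.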

How the data were processed

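Single-cell RNA libraries were made from wing discs of 4 genotypes, 1 library each. The submitters' processing notes name Cell Ranger 3.0.2 and Seurat. What genome build, annotation, cell filters and doublet treatment were chosen was not given in the sources used here. Each library's deposited table, made by the authors, holds a fold between cell sets, the detection fraction in each set and a p-value over cells. The deposited fold was read as a natural log, as its column name implies, although the base is not stated, and as including a pseudocount of 1, which understates low genes. The column naming the higher set gave its sign. The deposited detection fractions are printed as percentages. The authors' p-values were left aside because they count cells, not libraries. Repeated samples of a genotype were not analysed here, so no test between genotypes was made and no p-value is given. A gene was called at a 1.3-fold difference if it was found in 10% or more of the cells of a set.

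All 34 members' identifiers carried the same symbol in the reference table. Members and gene lists were chosen with earlier results of these data known. Every member could be named, with values for the 3 highest and 3 lowest differences from Control, the highest and lowest of each ring or group, members missing from some tables and paralogs, and for the other lists their highest and lowest genes. Pomp, and Usp14 where it was neither highest nor lowest of its list, were chosen after their values were seen. Alternatives were detection ratios, transformed shares, centring, other size limits, other member sets and another log base. The calculations used Python 3.11.15, pandas 2.3.3, NumPy 2.4.6 and Matplotlib 3.10.9. The difference of folds and the 1.3-fold rule were tested on simulated shifts, which were larger than any member's difference. The other calculations were not tested in this way.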

Additional observations from a re-analysis of the deposited data

Results flagged for a closer look

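Among the proteasome genes, 2 had folds of opposite sign in different libraries. Rpn2 had a log2 fold of GFP-positive over GFP-negative cells of -0.0015 in Control and -0.0079 in the Med12 depletion, against 0.1543 in the Cdk8-CycC depletion and 0.1317 in the combined depletion. Prosalpha1, found in few cells, had 0.0095 in Control and 0.0012 in the Cdk8-CycC depletion, against -0.0026 in the Med12 depletion and -0.0136 in the combined depletion. With 1 library per genotype, neither difference was tested. The values of Prosalpha1 and the negative values of Rpn2 lie within 0.02 of 0.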

How the results depend on the processing

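The count of 0 members past the size rule against Control held under every alternative run for it, in all 3 depletions. Values here are log2 medians in the order Cdk8-CycC, Med12 and combined, and the cause of each change was not tested. The median difference from Control (0.065, 0.019, 0.0279) became 0.0412, 0.0005 and 0.008 when centred on all genes. It turned to -0.0091, -0.0931 and -0.0481 by detection ratio, to -0.0966, -0.0074 and -0.0191 by centred detection ratio, and to -0.067, -0.0207 and -0.0213 by centred transformed shares. Read as log2, the Cdk8-CycC value was 0.0451. For Med12 it was 0.0298 over members in all 4 tables, 0.0298 with unlisted members at 0, and 0.0303 without Prosalpha1 and Rpt3R. The core minus regulatory difference (-0.0125, -0.049, -0.0253) was 0.0204, -0.0387 and 0.0076 by transformed shares. By detection ratio it was 0.0199 in Med12 and 0.0152 in the combined depletion. In Med12 it was -0.0191 by means and -0.034 read as log2, and in the combined depletion -0.0103 without Prosalpha1.

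The within-library medians of Control, Cdk8-CycC, Med12 and combined turned to -0.3092, -0.4165, -0.3263 and -0.3386 by centred detection ratio and were 0.0399, 0.0877, 0.0646 and 0.0636 when read as log2. Centred on all genes the depletions had 0.1057, 0.076 and 0.0726. Between depletions, centred transformed shares gave 0.0408 for combined minus Cdk8-CycC, -0.0083 for combined minus Med12 and -0.0282 for Cdk8-CycC minus Med12, and members in all 4 tables gave -0.0017 for combined minus Med12. Of the members, 3 were highest in Cdk8-CycC by centred transformed shares, against 21 by fold and 18 by centred fold. In GFP-negative cells the transformed shares gave 0.3113, 0.7462 and 0.4251. The alternatives between depletions, without single members, for GFP-negative cells and for the highest library, and the background of genes detected in 70 to 98% of cells, were chosen after seeing the data.

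No paired analysis was possible because each genotype has 1 library, and none was left out in turn for the same reason. All differences of folds, small or large, rest on 1 library per genotype, with unknown depth.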
